A study of Mus musculus with 672 samples.

Results

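The genes described here were 48 genes of mitosis and chromosome segregation, taken by name from a list. All 48 were among the 26127 genes of the table. All 48 also passed a minimum on the average of the group means of at least 1 read per 100000, as did 9525 genes in all. Their levels were followed cell by cell in single-cell RNA sequencing (Smart-seq2) of mouse embryonic fibroblasts (MEFs) during their conversion to induced pluripotent stem cells (iPSCs).

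All cells came from female MEFs of a cross between Mus musculus (Mus) and Mus musculus castaneus (Cast) with a GFP transgene on the Mus X. Cells whose Mus X was inactive at the start are called Xi-Mus, and cells whose Cast X was inactive at the start Xi-Cast. The paper reports that the inactive X is reactivated by the iPSC stage, so these names do not give the state at sampling. Reprogramming used lentiviruses for doxycycline-inducible Oct4, Sox2, Klf4 and Myc (tetO-FUW-OSKM) and for the transactivator (FUW-M2rtTA), with LIF and ascorbic acid. The 7 groups were Xi-Mus MEFs at day 0, Xi-Mus intermediates of day 8, day 9, day 10 and day 12, Xi-Mus iPSCs, and Xi-Cast intermediates at day 12. Intermediates were sorted on SSEA1, named FUT4 in the labels, so they describe sorted cells and not whole cultures. The day 0 MEFs carried the same lentiviruses but were taken before doxycycline was added. Per the methods they had been kept in MEF medium, and they had not been sorted on SSEA1. Intermediates received doxycycline in embryonic stem cell medium with LIF and ascorbic acid. Comparisons of intermediates with day 0 therefore also differ in induction and medium. The iPSCs came from picked colonies after doxycycline and ascorbic acid had been withdrawn. The table held 86, 82, 83, 80 and 80 Xi-Mus cells of days 0, 8, 9, 10 and 12, then 90 iPSCs, and 66 Xi-Cast cells.

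Cultures and animals are not told apart in the labels, so each group counted as 1 sample. No test was therefore run, and every difference describes these cells. Levels are means over the cells of a group in reads per 100000 gene reads of the cell. A member is called higher or lower when the ratio of the group means, with a pseudocount of 1 added to each, was at least 2-fold. This ratio understates the differences of low genes. The sample titles carry one code for days 0, 8, 9 and 10, and another for both day 12 groups and the iPSCs. What these title codes stand for is not stated in the labels. A difference between groups of different codes and one that goes with the code itself cannot be told apart. Day 8 with day 0, and iPSCs with day 12, can be compared within a code.

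Mitosis is driven by the kinase Cdk1 with its cyclins. It ends when the anaphase-promoting complex marks cyclin B and securin for destruction, which frees separase to cut the cohesin that holds sister chromatids together. The spindle checkpoint delays this step until kinetochores are attached to microtubules. Transcripts of these genes build up late in the cell cycle, in G2 and mitosis, and are low in resting cells. Mouse pluripotent stem cells are known for a short cycle with a brief G1 phase, whereas primary fibroblasts pause readily in G1.

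The promoters of 4 members are shown because they hold elements known from mitotic genes, placed close to the start site. The cell cycle genes homology region (TTTGAA or TTCGAA) is a contact of the MuvB complex, and CCAAT is the box bound by NF-Y. Both were searched on both strands from 250 bases before to 50 bases after the start. Capitals mark the matches. Sequences are from RefSeq on build GRCm38.p6 and run 5′ to 3′ on the strand of the gene: Cdk1 at chr10:69352863-69353162 (minus strand), Bub3 at chr7:131560120-131560419 (plus), Cdc20 at chr4:118437294-118437593 (minus) and Cdca8 at chr4:124936868-124937167 (minus).
Cdk1: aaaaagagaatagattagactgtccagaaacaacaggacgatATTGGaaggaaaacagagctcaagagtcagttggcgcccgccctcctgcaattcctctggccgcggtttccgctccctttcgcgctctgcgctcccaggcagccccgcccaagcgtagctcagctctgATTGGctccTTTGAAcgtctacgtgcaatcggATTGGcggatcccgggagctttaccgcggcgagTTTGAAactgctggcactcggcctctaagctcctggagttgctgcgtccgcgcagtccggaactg
Bub3: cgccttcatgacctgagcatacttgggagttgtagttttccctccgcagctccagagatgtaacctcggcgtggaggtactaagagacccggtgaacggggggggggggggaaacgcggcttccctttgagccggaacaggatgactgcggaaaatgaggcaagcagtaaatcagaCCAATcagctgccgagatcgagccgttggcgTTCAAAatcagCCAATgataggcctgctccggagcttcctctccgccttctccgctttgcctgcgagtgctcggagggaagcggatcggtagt
Cdc20: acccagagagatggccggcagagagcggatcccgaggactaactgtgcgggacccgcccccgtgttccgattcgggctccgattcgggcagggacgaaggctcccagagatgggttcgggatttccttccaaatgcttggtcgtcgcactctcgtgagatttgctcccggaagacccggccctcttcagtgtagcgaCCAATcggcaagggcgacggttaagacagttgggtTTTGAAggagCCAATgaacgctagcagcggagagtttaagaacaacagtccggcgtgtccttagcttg
Cdca8: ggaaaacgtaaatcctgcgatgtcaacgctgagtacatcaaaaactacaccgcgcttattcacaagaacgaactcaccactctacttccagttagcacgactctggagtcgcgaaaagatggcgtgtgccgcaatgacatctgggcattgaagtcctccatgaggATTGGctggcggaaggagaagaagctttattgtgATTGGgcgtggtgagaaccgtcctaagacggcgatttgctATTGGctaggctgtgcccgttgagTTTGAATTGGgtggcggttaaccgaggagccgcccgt

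Counted from the start site, the homology region began at -71 and -15 in Cdk1, at -43 in Bub3, at -18 in Cdc20 and at 14 in Cdca8. From another annotated start of Bub3, whose window is not shown, the element began at -167. In Cdca8 the element shared its last base with a CCAAT box on the other strand. Entries were found for 40 of the 48 members, with 43 windows in all. The homology region occurred in 35 of 43 member windows, or 81.4% (95% exact binomial interval 66.6 to 91.6), against 19.2% of 32851 promoter windows of the same length. CCAAT occurred in 76.7% of the member windows and 37.4% of all windows. Both elements occurred together in 72.1% of the member windows and 7.52% of all windows. Of the 48 homology matches in member windows, 33 began within 50 bases of the start. The windows of Birc5, Mad2l1, Ncaph, Nuf2, Nusap1 and Pttg1 had a match of neither element. A match is a description of the letters, and binding was not measured.

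Depth had a median of 583643 gene reads per cell (15053 to 2098345), and the group medians lay between 505799 and 726843. The day 0 and iPSC labels were checked against markers. Of the day 0 cells, 86 of 86 had reads of at least 5 of 10 fibroblast markers, against 0 of 90 iPSCs. Of the iPSCs, 90 of 90 had reads of at least 5 of 12 pluripotency markers, against 0 day 0 cells. At days 8, 9, 10 and 12, 36, 56, 49 and 52 cells reached that pluripotency count, and 1, 24, 31 and 17 reached the fibroblast count. One cell each at day 10, at day 12 and among iPSCs had reads of at least 5 of 9 macrophage and blood markers, and the results they set are given with and without them. Shares of cells with reads of a member were taken after thinning each cell to 100000 reads, which left out 9 shallower cells. Reads were amplified without molecular identifiers, so intervals cover counting error only.

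All 48 members had their lowest mean at day 0. The share of all genes with their lowest mean there was not counted. By the median of ratios over genes, the scaling factor was also lowest at day 0 (0.818), with 0.955 in iPSCs and 1.10 at day 9. Set against day 0, the iPSCs had 42 of the 48 higher by 2-fold or more, 0 lower, and 6 within 2-fold. Of all 9525 genes, 21.6% were higher by this measure and 17.8% lower. With group means rescaled by the median of ratios over genes, these shares were 18.4% and 21.7%, and 41 members were higher. The median ratio of the members was 2.09 on the log2 scale, or 4.26-fold, and that of all genes was 0.14. This comparison crosses the title codes.

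**Figure D1:**
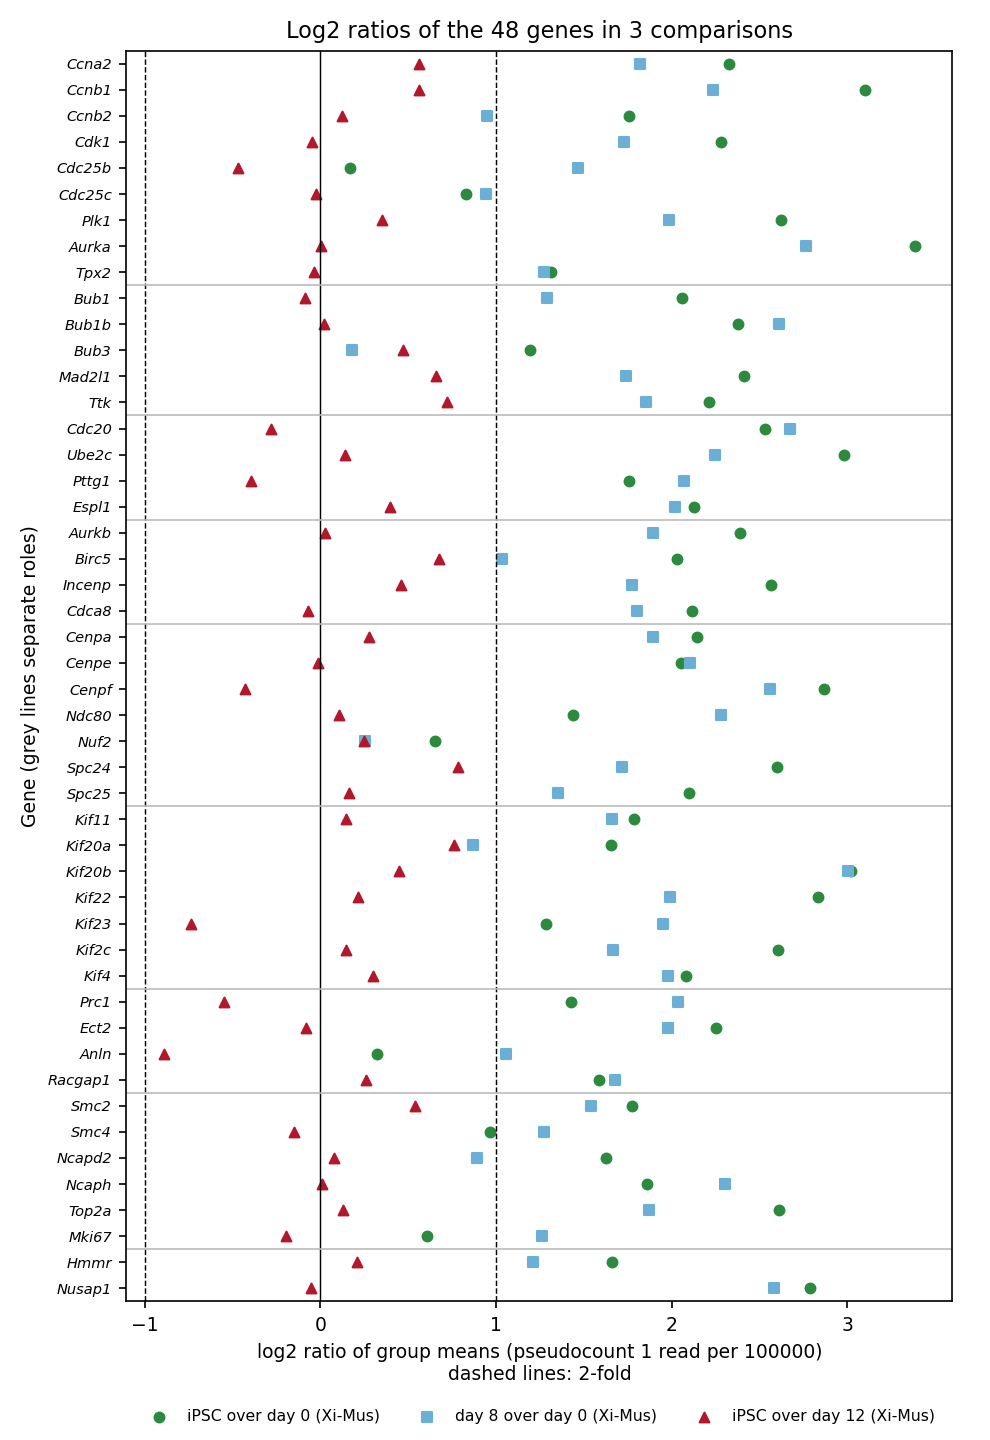
Log2 ratio of group means (pseudocount 1) of each of the 48 members, by role, for iPSCs over day 0 (circles), day 8 over day 0 (squares) and iPSCs over day 12 (triangles), with dashed lines at 2-fold. The iPSC ratios to day 0 run from 0.17 for Cdc25b to 3.38 for Aurka, the day 8 ratios from 0.18 for Bub3 to 3.0 for Kif20b, and all triangles lie within 2-fold.

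Among the cyclins, kinases and their activators, 7 of 9 were higher in iPSCs than at day 0, with a median log2 ratio of 2.28. Aurka, the kinase of centrosome maturation and spindle assembly, had the largest ratio of the members (3.38, or 10.4-fold). It averaged 47.6 reads per 100000 in iPSCs and 3.66 at day 0. Its lowest, median and highest cells were 0, 42 and 115 in iPSCs and 0, 0 and 47.8 at day 0, so the cells overlapped while the typical day 0 cell had no Aurka read. With all reads of a group summed, Aurka stood at 50.5 (Poisson interval 49.9 to 51.1) in iPSCs and 4.17 (3.99 to 4.35) at day 0. Thinned cells with an Aurka read made up 98.9% (93.8 to 100) of iPSCs and 27.4% (18.2 to 38.2) of day 0 cells.

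Cdk1 itself averaged 45.8 in iPSCs and 8.63 at day 0. Its cells ran from 12.4 over a median of 46.2 to 108 in iPSCs, and from 0 over 2.67 to 90.1 at day 0. Every iPSC therefore had Cdk1 reads. Ccnb1, cyclin B1 and the partner of Cdk1 at entry into mitosis, averaged 25.8 in iPSCs and 2.12 at day 0, a log2 ratio of 3.1. The ratios of Ccna2 (cyclin A2), Ccnb2 (cyclin B2), the mitotic kinase Plk1 and Tpx2, which activates Aurka, were 2.33, 1.75, 2.62 and 1.31. Of the phosphatases that switch Cdk1 on, the members Cdc25b and Cdc25c lay within 2-fold. Cdc25b averaged 1.02 in iPSCs and 0.790 at day 0 (0.17, 1.13-fold), and Cdc25c had a ratio of 0.83. Cdc25c was called higher with a pseudocount of 0.1 and without the highest cell of each gene.

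The checkpoint genes were all higher in iPSCs, 5 of 5 (median log2 ratio 2.21), and so were all 4 genes of the anaphase step (2.33). After median-of-ratios rescaling Bub3 came within 2-fold. Bub3, which recruits checkpoint proteins to kinetochores, had the smallest ratio of the 5 (1.19). It averaged 54.7 in iPSCs and 23.4 at day 0, and its median cell had 51 in iPSCs and 21.2 at day 0. Bub3 reads were found in 95.2% of thinned day 0 cells, the largest share of any member there. Bub1b, the kinase-like inhibitor of Cdc20, averaged 18.6 in iPSCs and 2.76 at day 0. Bub1, Mad2l1 and Ttk had ratios of 2.06, 2.41 and 2.21.

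Cdc20 is the activator of the anaphase-promoting complex and target of the checkpoint. Per kilobase of exon, with all annotated transcripts joined, it had the highest level of the members in every group but day 0. It averaged 79.2 in iPSCs and 12.9 at day 0. Its lowest, median and highest cells were 25, 75.9 and 185 in iPSCs and 0, 0.928 and 172 at day 0. The highest day 0 cell thus lay within the range of the iPSCs. Ube2c, the ubiquitin-conjugating enzyme of the complex, averaged 61.5 in iPSCs and 6.92 at day 0. The ratios of Pttg1 (securin) and Espl1 (separase) were 1.76 and 2.13.

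The chromosomal passenger complex, which corrects wrong attachments and later steers cytokinesis, was higher in all 4 of its subunits (median 2.25). Cdca8 (borealin) averaged 31.4 in iPSCs and 6.46 at day 0, and Birc5 (survivin) 33.2 in iPSCs and 7.37 at day 0. The kinase Aurkb and the scaffold Incenp had ratios of 2.39 and 2.57. Day 0 cells with no read of any subunit numbered 41 of 86, against 0 of 90 iPSCs.

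Of the 7 kinetochore and centromere genes, 6 were higher in iPSCs than at day 0 (median 2.10). Cenpa, the histone H3 variant of centromeres, averaged 39.1 in iPSCs and 8.09 at day 0. Cenpf, a large kinetochore protein, averaged 15.5 in iPSCs and 1.27 at day 0, and Cenpe, the kinesin that carries chromosomes to the spindle equator, 14.8 in iPSCs and 2.82 at day 0. The 4 genes of the Ndc80 complex, the microtubule coupler, had different ratios. Spc24 and Spc25 had ratios of 2.60 and 2.10, Ndc80 of 1.44 and Nuf2 of 0.65. Spc24 averaged 24.9 in iPSCs and 3.28 at day 0, whereas Nuf2 averaged 6.03 in iPSCs and 3.48 at day 0.

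All 7 mitotic kinesins were higher in iPSCs (median 2.08). The largest ratio was that of Kif20b, a motor of late mitosis, with 17.8 in iPSCs and 1.32 at day 0. Kif22, a chromosome-binding motor, averaged 28.6 in iPSCs and 3.16 at day 0. Kif4, a chromosome-bound motor and the only X-linked member, averaged 8.51 in iPSCs and 1.25 at day 0, a ratio of 2.08 that sat at the median of the kinesins. The part of X reactivation in the Kif4 ratio was not tested. Kif20a, which carries the passenger complex to the midzone, averaged 27.2 in iPSCs and 7.96 at day 0. Kif11 (spindle bipolarity), Kif2c (a microtubule depolymerase) and Kif23 (a subunit of centralspindlin) had ratios of 1.78, 2.60 and 1.28.

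The cytokinesis genes had the lowest median of the roles (1.5), with 3 of 4 higher. Anln (anillin), a scaffold of the contractile ring, averaged 11.9 in iPSCs and 9.30 at day 0, a ratio of 0.32. Racgap1, the partner of Kif23 in centralspindlin, averaged 27 in iPSCs and 8.34 at day 0. Prc1, which bundles midzone microtubules, had a ratio of 1.42, and Ect2, which activates RhoA at the cell equator, of 2.25.

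Of the 6 condensin and chromatin genes, 4 were higher (median 1.70). Top2a, the topoisomerase that untangles sister DNA, averaged 55.1 in iPSCs and 8.19 at day 0. Smc4, a core subunit of condensin, averaged 19.1 in iPSCs and 9.29 at day 0 and lay just short of 2-fold at a ratio of 0.96. It was called higher with a pseudocount of 0.1 and without the highest cell of each gene. Smc4 was read in 81% of thinned day 0 cells. The other condensin subunits, Smc2, Ncapd2 and Ncaph, had ratios of 1.77, 1.63 and 1.86. Mki67, the chromosome surface protein known as a proliferation marker (Ki-67), averaged 7.83 in iPSCs and 4.80 at day 0, a ratio of 0.61. Nusap1 and Hmmr, which bind spindle microtubules, averaged 17.7 and 16.6 in iPSCs and 1.71 and 4.57 at day 0.

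At day 8 most members were likewise higher than at day 0, the group that both comparisons share. By 2-fold or more, 42 of 48 were higher, 0 lower and 6 within 2-fold, where 21.3% of all genes were higher and 11.3% lower. The median ratio was 1.81 (3.51-fold) for the members and 0.31 for all genes. Both groups carry the same title code. With the median-of-ratios rescaling, 35 of the 48 members were higher by 2-fold, where 15.4% of all genes were higher and 16.6% lower, and Tpx2, Bub1, Birc5, Anln, Smc4, Mki67 and Hmmr came within it.

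The members within 2-fold were Bub3 (0.18), Nuf2 (0.25), Kif20a (0.87), Ncapd2 (0.89), Cdc25c (0.94) and Ccnb2 (0.95). With a pseudocount of 0.1, Ncapd2, Cdc25c and Ccnb2 were called higher. Without the highest cell of each gene, Cdc25c and Ccnb2 were called higher. With reads summed over the cells, Ccnb2 was called higher, and Birc5 and Anln were not. Anln was also not called in thinned cells. Bub3 averaged 26.6 at day 8 and 23.4 at day 0, the smallest ratio of the members. Kif20b, the largest, averaged 17.5 at day 8 and 1.32 at day 0 (3.0, 8.01-fold), and its median cell had 12.4 at day 8 and 0 at day 0. Aurka averaged 30.6 at day 8 and 3.66 at day 0 (2.76), Cdc20 87.7 at day 8 and 12.9 at day 0 (2.67), and Nusap1 15.3 at day 8 and 1.71 at day 0 (2.58). Role by role, the medians lay between 1.41 for condensin and chromatin genes and 2.16 for the genes of the anaphase step. Cdc25b was higher at day 8, with 3.95 against 0.790 at day 0, and Mki67 averaged 12.9 at day 8 and 4.80 at day 0.

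**Figure D2:**
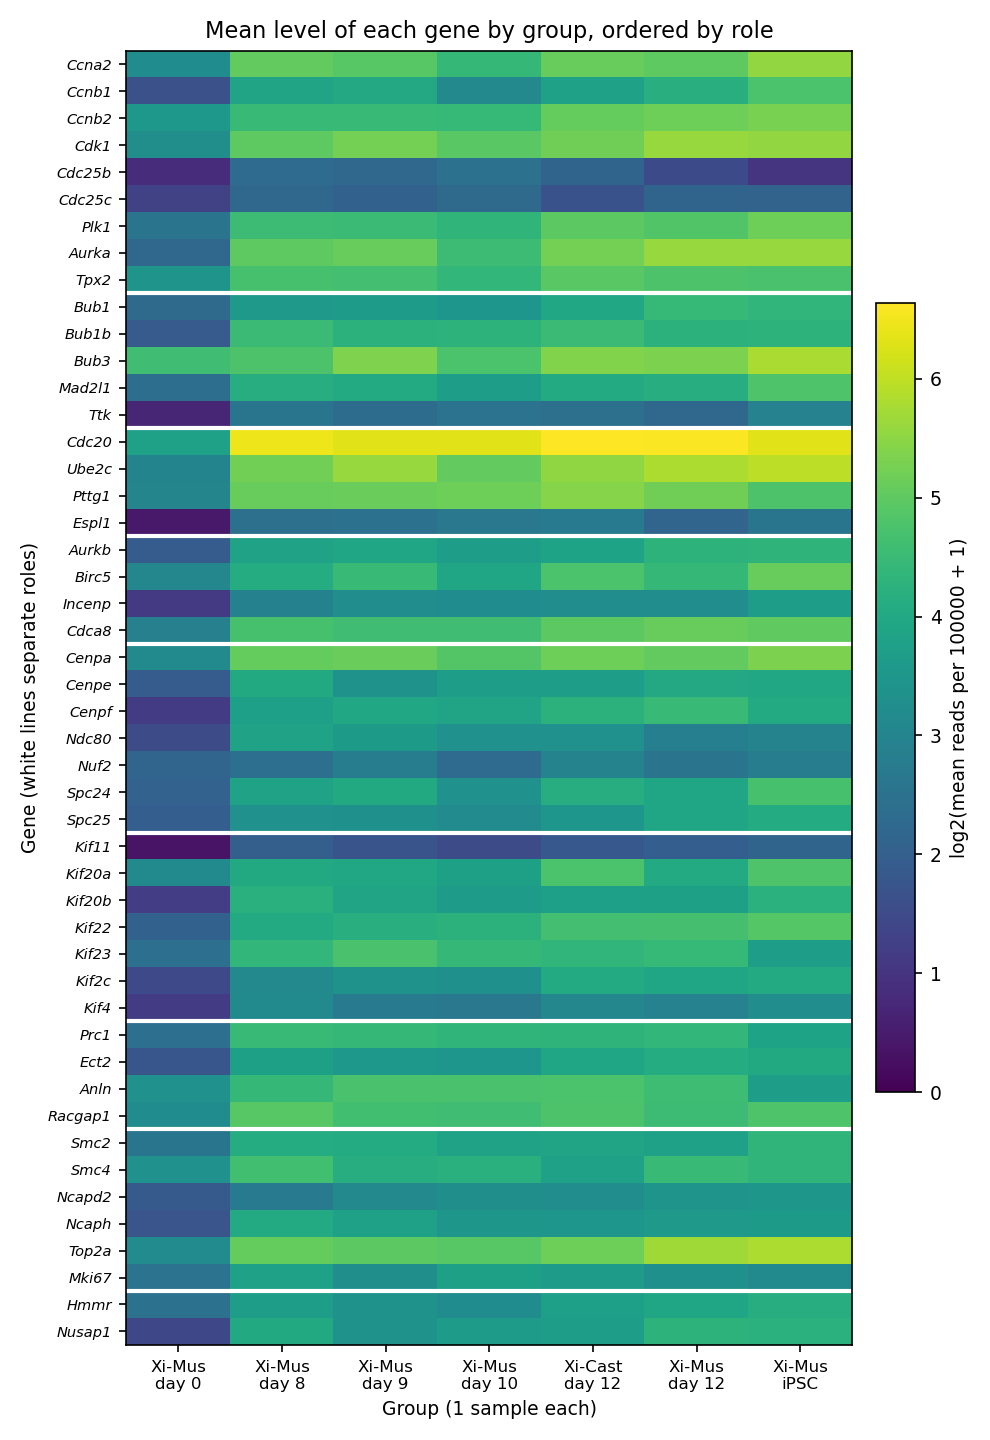
Mean level of each of the 48 members in the 7 groups, colored by log2 of the mean reads per 100000 gene reads plus 1, with white lines between the roles. Day 0 is the lowest group for all 48 members, and iPSCs are the highest for 25. Such shares were not counted over all genes.

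Between successive intermediate days few members differed by 2-fold. At day 9 over day 8, and at day 10 over day 9, 0 of 48 passed 2-fold in either direction. At day 9 relative to day 8, 0.966% of all genes were higher and 0.703% lower, and at day 10 relative to day 9, 1.4% were higher and 0.388% lower. Member ratios at day 9 over day 8 ran from -0.64 for Cenpe (9.50 at day 9, 15.4 at day 8) to 0.56 for Bub3 (39.8 at day 9, 26.6 at day 8), with a median of -0.04. At day 10 over day 9 they ran from -0.87 for Ccnb1 (7.70 at day 10, 14.9 at day 9) to 0.46 for Mki67 (12.6 at day 10, 8.85 at day 9). There 13 of 48 members lay above 0, against 50.8% of all genes, and the medians were -0.12 and 0.01.

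At day 12 relative to day 10, Aurka (47.5 at day 12, 22.2 at day 10) and Ccnb1 (17.2 at day 12, 7.70 at day 10) were higher by 2-fold, each with a ratio of 1.06. Cdc25b was at least 2-fold lower (1.79 at day 12, 4.70 at day 10, ratio -1.03), a call that was lost with median-of-ratios rescaling and at a minimum average of 5. The other 45 members lay within 2-fold, and 2.91% of all genes were higher and 2.79% lower. The members' median was 0.34 and that of all genes -0.05, and 38 of 48 members lay above 0, against 45.2% of all genes. These groups carry different title codes, so a change over this step and a difference between the codes cannot be told apart.

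In iPSCs relative to day 12, which share a code, 0 of 48 members passed 2-fold in either direction, while 3.12% of all genes were higher and 14.2% lower. The median member ratio was 0.13 and that of all genes -0.08. The roles pointed different ways within this narrow band. Checkpoint genes had a median of 0.47 and cytokinesis genes of -0.31. Anln had the lowest ratio (11.9 in iPSCs, 22.9 at day 12, -0.89), followed by Kif23 (12.1 in iPSCs, 20.8 at day 12, -0.73) and Prc1 (-0.55). With the reads of each group summed, Anln stood at 12.4 (12.1 to 12.6) in iPSCs and 25.5 (25.1 to 26) at day 12. Racgap1, of the same role, was higher (27 in iPSCs, 22.4 at day 12, 0.26). At the other end were Spc24 (24.9 in iPSCs, 14.1 at day 12, 0.78), Kif20a (27.2 in iPSCs, 15.7 at day 12, 0.76), Ttk (0.72) and Birc5 (33.2 in iPSCs, 20.4 at day 12, 0.68).

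Where each member peaked differed. Its highest mean was in iPSCs for 25 members. It came at day 8 for Bub1b, Cenpe, Ndc80, Prc1, Racgap1, Smc4, Ncaph and Mki67, at day 9 for Kif23, at day 10 for Cdc25b and Cdc25c, and at day 12 for Cdk1, Bub1, Cdca8, Cenpf, Ect2 and Nusap1. Xi-Cast cells at day 12 had the highest mean of Tpx2, Cdc20, Pttg1, Espl1, Nuf2 and Anln. Some of these peaks stood close to a neighbor: Cdk1 averaged 47.4 at day 12 and 45.8 in iPSCs. The share of all genes with their highest mean in each group was not counted.

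Xi-Cast cells at day 12 differed little from Xi-Mus cells of the same day in these means. None of the 48 members (0) passed 2-fold in either direction, and 0.556% of all genes were higher and 1.7% lower. The member median was -0.03, that of all genes 0.02, with 23 members above 0 and 25 below. The ratios ran from -0.68 for Smc4 (12.9 in Xi-Cast, 21.3 in Xi-Mus) to 0.71 for Kif20a (26.2 in Xi-Cast, 15.7 in Xi-Mus). The X-linked Kif4 averaged 7.38 in Xi-Cast and 6.72 in Xi-Mus cells (0.12).

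Behind these means the cells of a group differed. The sum of the 48 members in a cell had medians of 60.5, 834, 836, 411 and 975 reads per 100000 on days 0, 8, 9, 10 and 12, and of 1097 in iPSCs. The iPSCs lay in a range from 655 to 2030, whereas day 12 cells ran from 22.7 to 2788 and day 0 cells from 9.86 to 1818. The coefficient of variation (CV, the SD divided by the mean) over cells was 1.58, 0.76, 0.66, 0.94 and 0.82 on days 0, 8, 9, 10 and 12, and 0.23 in iPSCs. Xi-Cast cells at day 12 had a median of 937, a range of 19 to 2495 and a CV of 0.67.

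**Figure D3:**
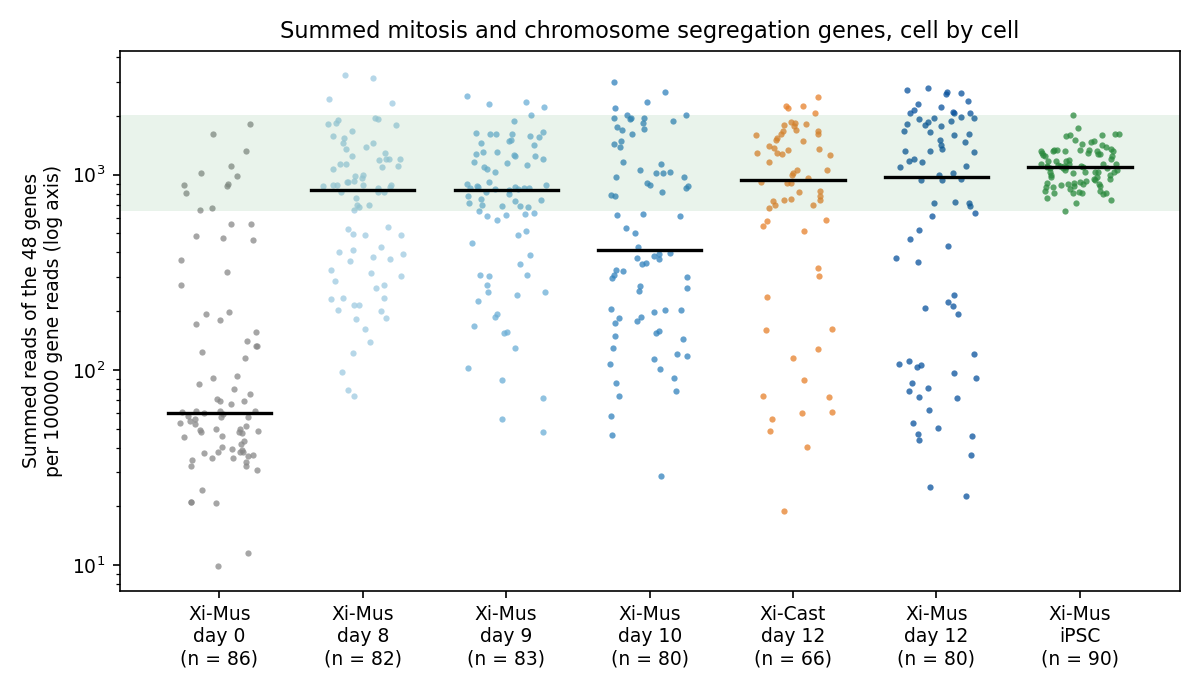
Summed level of the 48 members in every cell, in reads per 100000 gene reads (log axis), by group, with a black line at the median. The green band is the range of the iPSCs, 655 to 2030, and every other group has cells below it.

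Every group but the iPSCs had cells below the lowest iPSC. On days 0, 8, 9, 10 and 12 they made up 86% (74 of 86), 40.2% (33 of 82), 36.1% (30 of 83), 57.5% (46 of 80) and 41.2% (33 of 80) of the group, and among Xi-Cast cells 30.3% (20 of 66). Cells above the highest iPSC numbered 0, 4, 4, 4 and 13 on days 0, 8, 9, 10 and 12, and 5 among Xi-Cast cells. The day 12 group thus had cells on both sides of the iPSCs. The lowest iPSC (655), the lowest day 10 cell (28.8) and a day 12 cell at 25.2 were those with blood markers. In each of them all 9 markers had reads, with sums of 1594, 2656 and 2142. Without the 3 cells, the iPSCs ran from 714 to 2030 with a CV of 0.227, and the shares below them on days 0, 8, 9, 10 and 12 were 88.4%, 45.1%, 41%, 57% and 43%, and 34.8% among Xi-Cast cells. No member call changed.

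After thinning, a median of 8 of the 48 members had reads in a day 0 cell (2 to 47). On days 8, 9, 10 and 12 the medians were 36 (6 to 48), 41 (5 to 48), 33 (3 to 48) and 39.5 (3 to 48), and in iPSCs the median was 44 (37 to 48). Cells with reads of at least 24 members made up 22.6% of the day 0 group (19 of 84, interval 14.2 to 33). On days 8, 9, 10 and 12 they made up 74.1% (63.1 to 83.2), 76.5% (65.8 to 85.2), 62% (50.4 to 72.7) and 66.2% (54.8 to 76.4). They made up 100% of iPSCs (88 of 88, 95.9 to 100), and 76.9% of Xi-Cast cells at day 12 (64.8 to 86.5). The fibroblast group thus held a minority of cells with most members and a majority with few. At day 8, 17 cells lay within 4 members of that limit, so the share there is a cut through a range.

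Cells with reads of at most 12 members were 67.9%, 4.94%, 8.64%, 20.3% and 23.8% on days 0, 8, 9, 10 and 12, and 0% of iPSCs. Their share was larger on days 10 and 12 than on days 8 and 9. Among Xi-Cast cells they were 16.9%. For 41 of the 48 members the median day 0 cell had no read, the exceptions being Cdk1, Tpx2, Bub3, Cdc20, Anln, Smc2 and Smc4. In iPSCs this held for 1 member, Cdc25b, which was read in 19.3% of thinned iPSCs, against 11.9% at day 0 and 39.5% at day 8.

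Without thinning, reads in every iPSC were found for 18 members: Ccna2, Ccnb1, Ccnb2, Cdk1, Plk1, Tpx2, Bub3, Mad2l1, Cdc20, Ube2c, Birc5, Cdca8, Cenpa, Spc24, Kif20a, Kif22, Smc2 and Top2a. In the other groups 0 members had reads in every cell. The share of all genes with reads in every cell was not counted. The iPSCs had the most genes detected per cell (median 7657), and day 8 cells the fewest (6478.5). The day 0 means rested on few cells. The single highest day 0 cell held between 4.45% (Bub3) and 48.3% (Espl1) of a member's signal, with a median of 15.4%, against a median of 3.20% in iPSCs.

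The members varied less from iPSC to iPSC than within the other groups. The median CV of a member was 2.47, 1.19, 0.998, 1.27 and 1.11 on days 0, 8, 9, 10 and 12, and 0.621 in iPSCs. For 1068 other genes whose mean reached 10 in every group, the medians were 0.581, 0.615, 0.582, 0.648 and 0.689 on those days and 0.487 in iPSCs. Those genes were also lowest in iPSCs, but over a smaller span. The CV was lower in iPSCs than at day 0 for 48 members and lower than at day 12 for 47. Cdca8 had the lowest CV in iPSCs, 0.353, and Cdc25b the highest, 2.55. The members' day 0 means, from 0.274 for Kif11 to 23.4 for Bub3, were mostly below that minimum of 10, and the part of this in their CV was not tested.

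**Figure D4:**
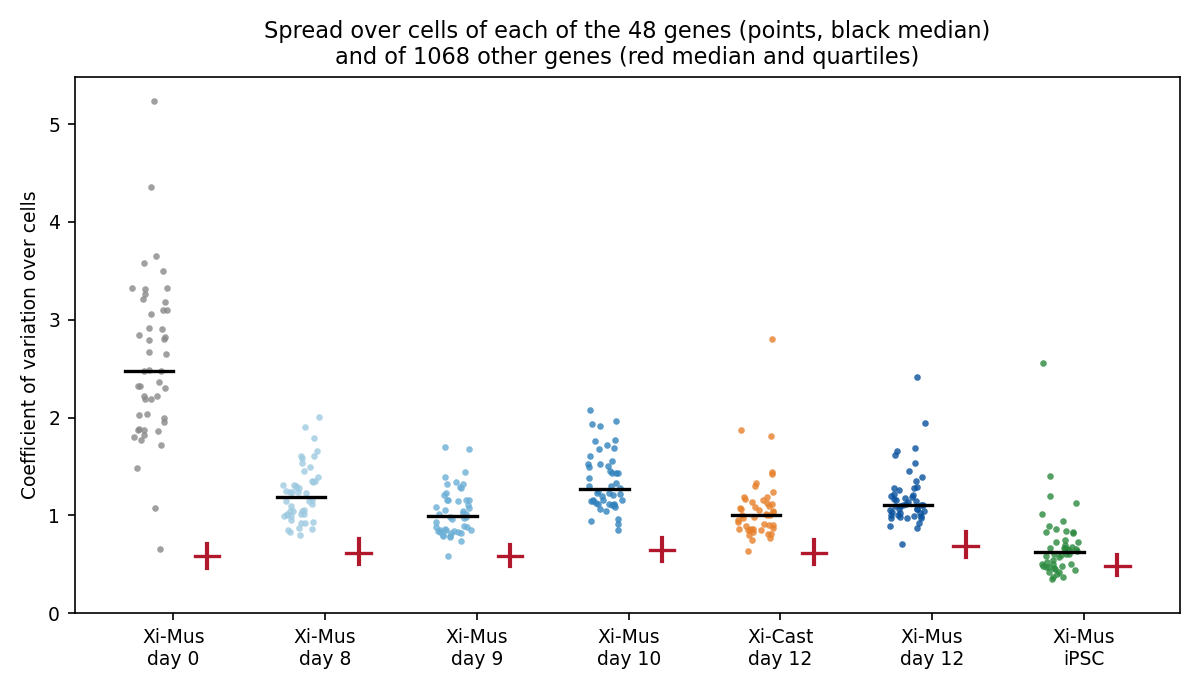
Coefficient of variation over the cells of a group for the 48 members (points, with a black line at their median) and for 1068 other genes whose mean reached 10 in every group (red crosses at the median and quartiles). The median of the members is 2.47 at day 0 and 0.621 in iPSCs, and that of the other genes 0.581 at day 0 and 0.487 in iPSCs.

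The members went up and down together from cell to cell in the fibroblasts and intermediates, and far less in iPSCs. Spearman correlations across the cells of 1 group are given as descriptions, since cells of a group belong to 1 sample and the members share each cell's depth. The median correlation of a member with the sum of the other members was 0.60, 0.65, 0.65, 0.75 and 0.78 on days 0, 8, 9, 10 and 12, and 0.28 in iPSCs. Over the 1128 pairs of members the median was 0.53 at day 0, 0.63 at day 12 and 0.10 in iPSCs. Pairs above 0 made up 99.9% at day 12 and 79.3% in iPSCs. In iPSCs the members closest to the rest were Ube2c (0.61), Aurka (0.59) and Top2a (0.58), and those farthest from it Ccna2 (-0.01) and Spc24 (0.04). Ccnb1 with Aurka had 0.50 in iPSCs and 0.83 at day 12, and Top2a with Cdc20 had 0.04 in iPSCs and 0.80 at day 12.

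The summed members also moved with other measures of the cell. Their correlation with depth lay between 0.13 and 0.36, and with the number of genes detected between 0.09 in iPSCs and 0.47 at day 12. With the summed epithelial markers it was negative in all groups (-0.07 in iPSCs to -0.48 at day 12). With the summed pluripotency markers it was -0.03, 0.37, 0.18, 0.47 and 0.51 on days 0, 8, 9, 10 and 12, and 0.05 in iPSCs. The 10 epithelial markers summed to 0 to 65.9 at day 0, 13.5 to 5537 at day 12 and 0.373 to 389 in iPSCs. The 12 pluripotency markers summed to 0 to 4.83 at day 0, 0 to 2467 at day 12 and 222 to 1762 in iPSCs. At day 0, 5 markers of either list had reads. The part of depth and of these markers in the members' levels was not tested.

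Genes of DNA replication and S phase entry (18 genes such as the Mcm helicase subunits and Ccne1) were set beside the members. The correlation of the summed members with their sum was 0.71, 0.51, 0.27, 0.65 and 0.60 on days 0, 8, 9, 10 and 12, and -0.35 in iPSCs (-0.37 unthinned). Cells high for mitotic genes were thus also high for S phase genes in the earlier groups, and the order was the opposite in iPSCs. Of these 18 genes, 16 were higher in iPSCs than at day 0 (median log2 ratio 2.32) and 9 at day 8 than at day 0 (1.19). The shares of all genes were 21.6% and 21.3%. The lowest S phase sum of an iPSC was 225, and 15, 52, 64, 38 and 48 cells of days 0, 8, 9, 10 and 12 reached it. Within those cells the correlation in unthinned reads was -0.16, -0.11, -0.34, 0.01 and -0.51 on the same days. The values of the whole groups on these days came from thinned reads, so the measures differ. The CV of the summed members among those day 12 cells was 0.39, against 0.82 for the whole group. The 32 day 12 cells under that limit had a median of 99.8, and the 48 cells at or over it a median of 1557. Since the S phase sum itself correlated with the members outside iPSCs, a floor on it can by itself lower the CV and the correlation. This limit was chosen after the values had been seen and rests on 1 iPSC. Without that cell the limit was 335, and 8, 37, 52, 32 and 42 cells of those days reached it. The unthinned correlations within them were then 0.10, -0.11, -0.45, -0.26 and -0.45, so those of day 0 and day 10 depended on that cell, and the day 12 CV was 0.42.

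**Figure D5:**
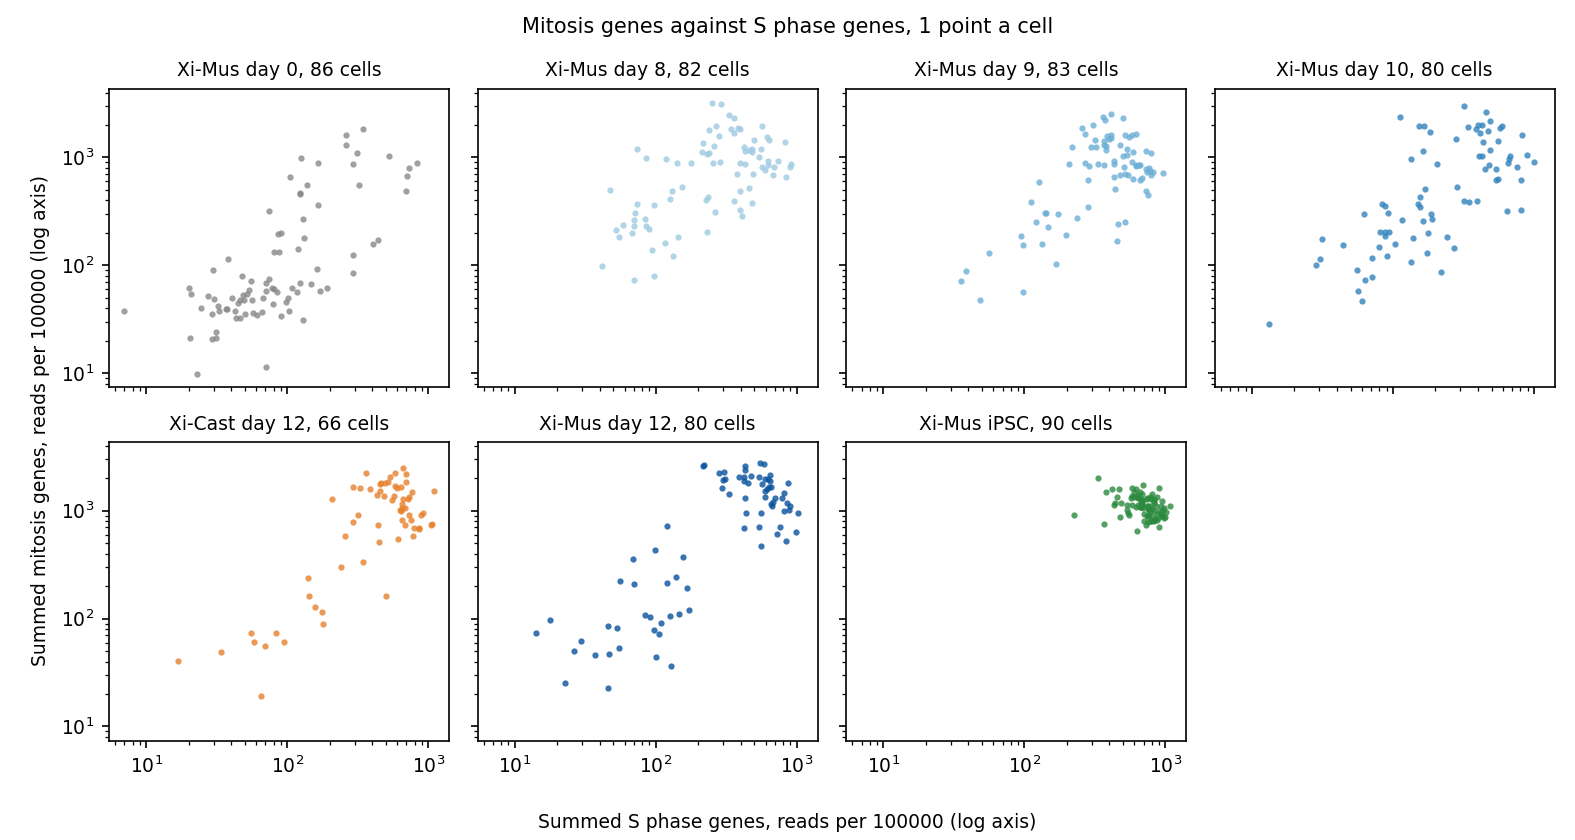
Summed level of the 48 members against the summed level of 18 S phase genes in each cell, both in reads per 100000 gene reads (log axes), by group. Day 0 and intermediate groups have cells low on both axes, and the Spearman correlation over the 90 iPSCs is -0.37.

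The genes most like the members cell by cell were sought among 6376 non-members with reads in at least 20% of the cells of every group. By the median over the 7 groups of the correlation with the summed members, the first were Cdca3 (0.76), Knstrn (0.74), Shcbp1 (0.69), Ncapg (0.65), Tuba1b (0.64), Dlgap5 (0.64), Cks1b (0.64), Cks2 (0.63), Tacc3 (0.62) and Arl6ip1 (0.60). Next came H2afx, Kif15, Tubb5, Hmgb2 and, at 0.56, Prim1. Of these 15 genes, 6 were in a list of further mitosis genes. Among iPSCs alone, the correlations of the 15 ran from -0.14 (Tuba1b) to 0.56 (Arl6ip1), with 0.15 for Cdca3. The lowest were Itm2b (-0.42), Ctsl (-0.42), S100a6 (-0.41), Map1lc3a (-0.40) and the nuclear RNA Malat1 (-0.40), and the median of all ranked genes was 0.05. In iPSCs Malat1 had 0.43 and Ctsl 0.12, and the other lowest genes stayed below 0.

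Genes around the members in the pathway gave the following counts. Beside them, 21.6% of all genes were higher and 17.8% lower in iPSCs than at day 0. At day 8, 21.3% of all genes were higher than at day 0. Of 64 measured further mitosis genes, 55 were higher in iPSCs than at day 0 and 0 lower (median 1.62), and 40 were higher at day 8 than at day 0 (median 1.18). Of 16 core subunits and cofactors of the anaphase-promoting complex, 1 was higher in iPSCs than at day 0, Fzr1 (Cdh1, the activator that follows Cdc20), with a ratio of 1.71. The median of that list was 0.42, and that of the members that act with the complex 2.33. Of 10 cohesin genes, 4 were higher in iPSCs: the acetyltransferase Esco2 (3.15) and the subunits Smc3 (1.92), Smc1a (1.14) and Rad21 (1.06).

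Among 21 transcription regulators of mitotic genes, 7 were higher in iPSCs than at day 0 and 0 lower, where 21.6% of all genes were higher and 17.8% lower. Mybl2 (B-Myb), which joins MuvB at late cell cycle promoters, had the largest ratio, with 48.2 in iPSCs and 0.688 at day 0 (4.87). It was also the 1 regulator of the 21 higher in iPSCs than at day 12 (18.6 there, 1.33), where 3.12% of all genes were higher. Foxm1, an activator of G2 and mitosis genes, averaged 2.89 in iPSCs and 0.972 at day 0 (0.98), and Nfyb, a subunit of the CCAAT-binding NF-Y, had 1.65. Of 9 inhibitors of mitotic entry or of cyclin-dependent kinases, 2 were lower and 3 higher in iPSCs than at day 0. The lower ones were Cdkn2b (0.721 in iPSCs, 27 at day 0, -4.02) and Cdkn1a (19 in iPSCs, 117 at day 0, -2.57). Wee1 and Pkmyt1, the kinases that hold Cdk1 inactive, were higher, at 1.86 and 1.16, and so was Sfn (14-3-3 sigma), at 2.24. In iPSCs relative to day 12, 4 of the 9 inhibitors were lower, against 14.2% of all genes: Sfn (-2.73), Cdkn1a (-1.79), Cdkn2b (-1.63) and Cdkn1c (-1.36).

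The counting limits some members. All 48 are protein-coding genes, 47 on autosomes and Kif4 on the X. The libraries do not mark strand, and exons of 14 members overlap those of another gene over 1.35 to 29.3% of their bases. The overlap was over 10% for Kif20a (29.3%), Ube2c (22.8%), Kif4 (15.1%), Cdc25c (12.7%), Ccna2 (12.5%) and Prc1 (11.1%). Reads from these shared stretches cannot be told apart from those of the neighbor by strand. The methods do not state whether such reads were counted or left out. The levels of these members could therefore be too high or too low. Ccnb1, Ccnb2, Kif22 and Kif4 have named pseudogenes, and since only uniquely placed reads were counted their levels are less certain. Per kilobase of annotated exon, Cdc20 led in iPSCs (42.4 reads per 100000 and kilobase) and Ccnb2 at day 0 (6.96). This length joins the exons of all annotated transcripts of a gene (1868 bases for Cdc20, 2600 for Ube2c). It can exceed that of the transcript present, so the order of the members depends on it.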

How the data were processed

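Single cells were sorted into wells and made into Smart-seq2 and Nextera XT libraries. Per the methods and the submitters' notes, the authors aligned reads with STAR 2.5.3a to mm10, counted unique reads per gene with featureCounts, used SAMtools and normalized in Seurat. The deposited values are the natural log of 1 plus reads per 10000 gene reads (the methods state another scale, but every column's antilog sums to 10000). They were converted back and scaled to 100000. Each of the 3980842 nonzero values corresponded to a whole number of reads within 0.01 reads or 1e-06 of the value, giving depths of 15053 to 2098345.

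The labels name 672 cells, of which 567 were in the table, and no cultures or animals, so each group was 1 sample and no test was run. Doublets were not called, and whether a well held more than 1 cell was not tested. Group means were compared as log2 ratios (pseudocount 1), among 9525 genes with an average of at least 1. Shares of cells with reads of members and most correlations used reads thinned to 100000 per cell (seed 11). Unthinned reads gave the summed levels, the correlations within cells over the S phase limit and the members read in every cell. Intervals are 95% exact binomial or Poisson intervals. Members and lists were chosen with earlier results of these data known. Full values were given for the 2 members with the highest average in each role, those at either end of each comparison and the X-linked member. Genes most like the members were those with the 15 highest and 5 lowest median correlations among non-members. Alternatives covered pseudocount, filter, thinning, scaling, weighting and leaving out the highest cell. Those on variation, on the iPSC range and on cells with blood markers were chosen after seeing the data. Exon positions came from GENCODE M21. Scripts were tested on simulated data and used Python 3.11.15, pandas 2.3.3, NumPy 2.4.6, SciPy 1.17.1 and Matplotlib 3.10.9.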

Additional observations from a re-analysis of the deposited data

How the results depend on the processing

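Of 431 alternative values for 99 results, 395 stayed within the limits set for a change and 36 moved. The sign changed for 3 medians near 0: that of day 9 over day 8 was 0.01 in thinned cells and 0.0039 with summed reads (-0.04 in the report), and that of Xi-Cast over Xi-Mus 0.02 in thinned cells (-0.03). With the S phase limit set by the next-lowest iPSC, 8 cells of day 0 reached it (15 in the report). No paired analysis was possible because each group was 1 sample and no test was run. The member called at least 2-fold lower at day 12 than at day 10, Cdc25b, was no longer called (count 0) with an average of at least 5, where it was not kept, or with means rescaled by the median of ratios. With reads summed over cells, 1 member (Cdc25b) was higher in Xi-Cast than in Xi-Mus cells. Asking for reads of at least 16 of the 48 members raised the share of cells to 88.9% at day 8, 88.9% at day 9 and 75.9% at day 10. Above the 95th percentile of iPSCs, rather than the highest iPSC, were 13.4% of cells at day 8 (4.88% in the report), 13.3% at day 9 (4.82%), 20% at day 10 (5%), 32.5% at day 12 (16.2%) and 24.2% in Xi-Cast cells (7.58%).

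Median-of-ratios rescaling lowered the median of all genes by 0.14 for iPSCs over day 0 and by 0.29 for day 8 over day 0. In the second, 48.2% of all called genes were then higher, against 65.3%. In iPSCs over day 0, 41 members were then higher, and Bub3 was not. Of all calls in Xi-Cast over Xi-Mus, 24.7% were higher, against 35.3% with summed reads and 37.7% with a pseudocount of 0.1. With an average of at least 5, which tests 4445 genes, the counts of all genes higher and lower were 1229 and 775 in iPSCs over day 0 (2058 and 1691 in the report), 1129 and 400 in day 8 over day 0 (2033 and 1081), 41 and 35 in day 9 over day 8 (92 and 67), 44 and 18 in day 10 over day 9 (133 and 37), 119 and 119 in day 12 over day 10 (277 and 266), 155 and 714 in iPSCs over day 12 (297 and 1353), and 24 and 48 in Xi-Cast over Xi-Mus (53 and 162). With a pseudocount of 0.1 they were 405 and 234, 447 and 176, 541 and 611, 502 and 2061, and 267 and 442 for the last 5 of these. The cause was not tested beyond the lower number of genes.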
